A study of Mus musculus with 8 samples.

Results

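Interferon receptors and the sensors of foreign nucleic acid were examined across cell classes of mouse ependymoma. The 10 genes were taken by symbol: the receptor chains Ifnar1, Ifnar2, Ifngr1 and Ifngr2, the DNA sensor Cgas with its adaptor Sting1, the RNA sensing adaptor Mavs, the kinase Tbk1, the transcription factor Irf3 and the DNA nuclease Trex1. All 10 were found among the 33696 genes of each file. The tumours came from mice of the genotype NestinCreERT2;Fus1;RFPTdT, a ZFTA-RELA ependymoma model driven from Nestin-expressing cells, which all animals of both groups share. At 3 weeks old, tumour bearers were allotted at random to mavrilimumab, an antibody to the GM-CSF receptor alpha chain given once intrathecally at 5 mg/kg, or to a control antibody called vehicle IgG. Tissue is listed as from mice of 6 to 8 weeks. The study gives this age for its single-cell sequencing in general and no separate age for mice at recurrence. Cells stained for CD45 and Ter119 were sorted, per the study for live, extravascular CD45+ Ter119- cells of the tumour at recurrence, and profiled by droplet RNA sequencing in 4 libraries, 2 per group; the labels do not say how many mice each library holds, and the study's legends describe tumours pooled within a group, so the spread between libraries is not one between single animals and may be partly technical.

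Interferons reach a cell through paired receptor chains. Type I interferons bind IFNAR1 and IFNAR2, and interferon gamma binds IFNGR1, while IFNGR2 recruits the kinase JAK2 and is needed for the signal; in T cells the amount of IFNGR2 is known to limit the response. Inside the cell, cGAS detects cytosolic DNA and makes a cyclic dinucleotide that activates STING, and MAVS relays the detection of viral RNA. Both adaptors engage TBK1, which phosphorylates IRF3, the factor that switches on interferon genes. TREX1 degrades cytosolic DNA and so acts as a brake upstream of cGAS.

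Libraries and gates limited what could be compared. The 4 libraries held 984, 26746, 6412 and 5490 cells after filtering, in the order vehicle IgG 1, vehicle IgG 2, mavrilimumab 1 and mavrilimumab 2, with median depths of 3296 to 11759 UMIs (unique molecular identifiers, counts of single RNA molecules). Cells were put in 7 gates by marker genes, cells that met more than 1 rule were left out, and UMIs were summed per library and gate wherever a library had at least 20 cells, which gave 23 sums. Any 2 expression libraries shared between 0 and 60 cell barcodes. In 3 of 3 T cell receptor files the sample name inside the file is that of the other treatment, and the receptor library labelled mavrilimumab 1 shared 2491 of its 2749 barcodes with the expression library labelled mavrilimumab 2 and 2 with that labelled mavrilimumab 1. The receptor library labelled mavrilimumab 2 shared 4867 of 5659 with the expression library labelled mavrilimumab 1, and vehicle IgG 1 shared 182 of 193 with its namesake, so barcodes pair libraries within the labelled treatments. CD8 T cells were 6.71% and 6.48% of kept cells in the vehicle IgG libraries and 30.2% and 32.3% in the mavrilimumab libraries. All groups here are as labelled. Barcodes cannot show whether the treatment labels of both file kinds were exchanged together. In that case each treatment difference given here would change its sign.

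The gates were checked against marker genes their rules did not use. The CD8 T and CD4 T gates had T cell markers (Cd3d, Cd3g, Trac and Lck) at 1754 to 3280 CPM (CPM: UMIs of a gene scaled to a total of 1e6 per sum), against at most 74.2 CPM in the microglia and Ccr2/Lyz2 gates. NK markers (Nkg7, Klre1, Eomes and Prf1) summed to 2842 to 4036 CPM in the NK gate and to 1324 to 2951 CPM in CD8 T cells, which share them. The NK gate also held T cell markers at 369 to 873 CPM and gamma-delta T markers at 101 to 239 CPM, so it may include other lymphocytes. The monocyte gate, defined by Ccr2 or Ly6c2 with Lyz2, went against its name in part, since neutrophil genes (S100a8, S100a9, Retnlg and Csf3r) summed to 16111 and 55518 CPM in vehicle IgG 2 and mavrilimumab 2 and to 122 CPM in mavrilimumab 1; it is called the Ccr2/Lyz2 gate below and monocyte in the plots. The gate on Cd79a and Cd79b also held other cells. In mavrilimumab 1, 170 of its 212 cells had over 10% immunoglobulin UMIs, with a median of 58.9%, against 6 of 80 in vehicle IgG 2 and 1 of 191 in mavrilimumab 2, and T cell markers reached 561 and 1055 CPM in the latter 2 libraries. Gamma-delta T markers there summed to 372 and 1316 CPM. It is called the Cd79 gate, and B in the plots. The neural gate (no Ptprc, with Nnat or Mdk) had 15569 cells in vehicle IgG 2 and 419 in mavrilimumab 2 and too few in the other libraries. Judged by immune marker genes, free RNA came to 52.9% of its sum in vehicle IgG 2 and 45.9% in mavrilimumab 2, so its levels are not of neural cells alone. Neural markers (Sox2, Sox11, Fabp7 and Ptn) in this gate summed to 1393 and 1346 CPM in the same order, and tumour and other neural cells were not told apart. These cells lack Ptprc, the gene of CD45, which the sort selected for, and how they came into these libraries was not tested. In NK, Cd79 and Ccr2/Lyz2 gates vehicle IgG 1 had too few cells, so vehicle IgG rests on 1 library there. That library, vehicle IgG 2, held neural markers at 379, 259 and 272 CPM in these gates, against at most 3.93 CPM under mavrilimumab. Its CD8 T and CD4 T gates held 321 and 532 CPM, against at most 4.96 CPM in the other libraries. The part of these genes in differences between treatments was not tested.

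Of the 4 receptor genes, 3 are neighbours. In the RefSeq annotation of mouse build GRCm38.p6, Ifnar2 (chr16:91372783-91405589), Ifnar1 (chr16:91485032-91510523) and Ifngr2 (chr16:91547059-91564007) lie within 191 kb, with Il10rb, the shared chain of the interleukin 10 receptor, between Ifnar2 and Ifnar1. Ifngr1 lies apart on chromosome 10 (chr10:19591949-19610229). The 250 bases before the start of 3 of these genes are shown 5′ to 3′ because Ifngr1 and Ifngr2 are paired chains that differed in pattern over the classes, and Ifnar2, a neighbour of Ifngr2, shared its higher level in the myeloid gates. Capitals mark GGGCGG or its complement, the GC box bound by SP1-type factors, with overlapping matches run together.
Ifngr1, chr10:19591699-19591948, plus strand: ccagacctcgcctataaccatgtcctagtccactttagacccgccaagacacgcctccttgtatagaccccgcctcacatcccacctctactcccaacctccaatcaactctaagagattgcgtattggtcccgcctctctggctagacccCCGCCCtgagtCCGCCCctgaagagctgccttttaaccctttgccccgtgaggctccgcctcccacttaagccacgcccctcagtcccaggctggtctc
Ifngr2, chr16:91546809-91547058, plus strand: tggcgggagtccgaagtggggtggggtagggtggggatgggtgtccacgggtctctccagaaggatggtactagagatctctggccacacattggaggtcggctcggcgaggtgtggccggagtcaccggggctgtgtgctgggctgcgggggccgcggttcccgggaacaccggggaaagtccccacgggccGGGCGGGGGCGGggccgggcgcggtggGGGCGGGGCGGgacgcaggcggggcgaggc
Ifnar2, chr16:91372533-91372782, plus strand: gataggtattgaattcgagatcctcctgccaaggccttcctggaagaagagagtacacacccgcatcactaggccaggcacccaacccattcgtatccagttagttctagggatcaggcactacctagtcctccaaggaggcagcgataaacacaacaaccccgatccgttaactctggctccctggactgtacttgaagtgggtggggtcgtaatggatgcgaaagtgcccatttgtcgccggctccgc

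The windows differ in composition. Ifngr2 had 4 GC box matches and 74% G and C, Ifngr1 had 2 matches and 59.2%, and Ifnar2 had none and 54%. A GC box was found in 32.7% of the 32851 RefSeq promoter windows of this length. The interferon response element was searched on both strands as GAAA followed after any 2 bases by GAAA. It was absent from the windows of the 9 members searched, all but Sting1, and occurs in 2.98% of all windows. The gamma-activated site, searched as TTCNNNGAA, occurs in 7.02% of all windows and had 1 match among the members, in Ifnar2. The myeloid PU.1 core GAGGAA, found in 23.3% of all windows, had 1 match, in Ifnar1. These matches describe letters in a short window and say nothing of binding.

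Of the 9 members tested, Ifngr2 had the largest difference between the myeloid and the lymphoid gates. In microglia its level was 277 and 189 CPM in the vehicle IgG libraries and 268 and 273 CPM in the mavrilimumab libraries. In the Ccr2/Lyz2 gate Ifngr2 was at 120 CPM in vehicle IgG 2, 291 in mavrilimumab 1 and 175 in mavrilimumab 2. Each of these values lay above every lymphoid and neural value. In CD8 T cells Ifngr2 was at 27.4 and 24.2 CPM under vehicle IgG and at 3.66 and 12.5 CPM under mavrilimumab. In CD4 T cells the level was 34.5 and 51.4 against 11.1 and 40.8 CPM, and in NK cells 14.5 CPM in vehicle IgG 2 and 1.85 CPM in mavrilimumab 2. Ifngr2 had 0 UMIs in the 20 NK cells of mavrilimumab 1, where a count of 0 allows up to 24.7 CPM, so that library sets no lower level. In the order of class means, microglia (252 ± 42.4 CPM, SD, n = 4) and the Ccr2/Lyz2 gate (195 ± 87.2, n = 3) did not differ beyond their spread, and the step down to the neural gate (56.4 ± 7.89, n = 2) exceeded it. The Cd79 gate followed at 42.7 ± 26.2 (n = 3), then CD4 T at 34.5 ± 17.1 (n = 4), CD8 T at 16.9 ± 10.9 (n = 4) and NK at 5.44 ± 7.88 CPM (n = 3).

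The partner chain did not follow. Ifngr1 was at 517 CPM in NK cells of vehicle IgG 2, 560 in mavrilimumab 1 and 649 in mavrilimumab 2. In CD4 T cells it ranged from 351 to 747 CPM, and the NK and CD4 T means did not differ beyond their spread. Ifngr1 was at 373 to 465 CPM in CD8 T cells and at 303 to 438 CPM in microglia, ranges that overlap. In mavrilimumab 1 free RNA held more Ifngr1 (706 CPM) than either of these gates, of which CD8 T cells had 60.7% and microglia 62.1%, while in the other libraries both stood at 129% or more of the free RNA level. It was low in the neural gate, at 41.2 and 41.3 CPM. The share of Ifngr2 in the UMIs of the pair therefore differed between classes: 0 to 2.72% in NK, 0.846 to 6.82% in CD8 T, 1.46 to 12.8% in CD4 T, 12.5 to 22.3% in the Cd79 gate, 38.0 to 41.0% in microglia, 32.4 to 40.7% in the Ccr2/Lyz2 gate and 55.2 and 60.0% in the neural gate. The lymphoid and myeloid ranges did not overlap. The share is compared between classes only, as the 2 genes may be captured unequally.

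**Figure D1:**
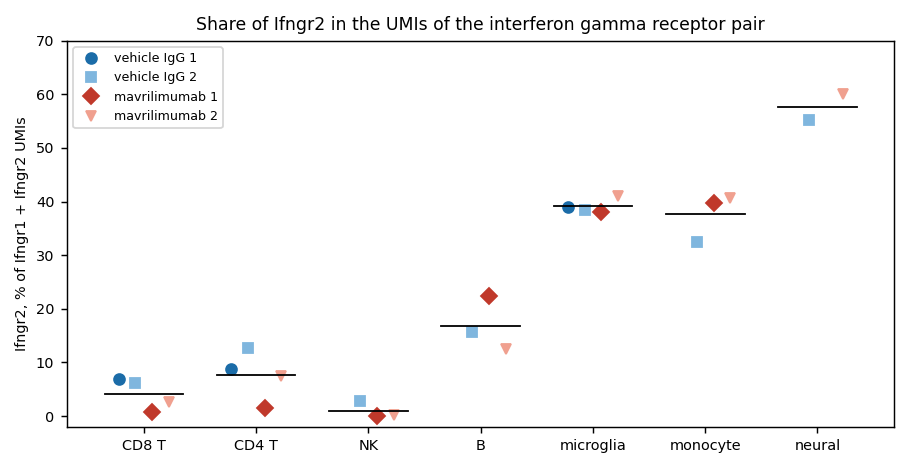
Share of Ifngr2 in the UMIs of Ifngr1 and Ifngr2 together (y axis, percent) per class gate (x axis); each point is 1 library's summed cells and the line is the mean over libraries. T and NK points lie at 12.8% or less, and microglia at 38.0% or more.

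The order held at equal depth per cell. After each cell was thinned to 1000 UMIs, Ifngr2 was seen in 17.5 to 22.8% of microglia (47.1 to 80.6% before thinning), in 0.258 to 3.03% of CD8 T cells (1.55 to 25.8% before) and in 0.589 to 5.31% of CD4 T cells. In NK cells it was seen in 5 of 441 cells of vehicle IgG 2 (1.13%, exact 95% interval 0.369 to 2.63%) and in 0 of 366 of mavrilimumab 2, with an upper bound of 1.00%. For Ifngr1 the corresponding mean shares were 48.8% in NK, 31.1% in CD8 T and 30.5% in microglia. The lymphoid levels stood below those of free RNA. Among droplets with 10 to 300 UMIs, taken as the free RNA of a library, Ifngr2 stood at 149, 60.2, 34.6 and 91.1 CPM in vehicle IgG 1, vehicle IgG 2, mavrilimumab 1 and mavrilimumab 2. The CD8 T level was 10.6 to 40.2% of that of its library, and the NK level of mavrilimumab 2 was 2.03%. In CD4 T cells it was 23.1 to 85.4%, and in the neural gate 84.5 and 68.1%. Judged by microglial genes, free RNA came to 32.1 to 75.8% of the lymphoid sums. With free RNA subtracted from the lymphoid sums by its content of microglial genes, an alternative chosen after the data were seen that may subtract too much where lymphoid cells express such genes, the mean Ifngr2 level was 0 CPM in CD8 T, 0 CPM in NK and 13.6 CPM in CD4 T cells, and no expression of Ifngr2 in CD8 T or NK cells is read from these levels.

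Across the classes, 5 of the 9 members tested were higher in the microglia and Ccr2/Lyz2 gates than in the 4 lymphoid gates and 1 was lower (edgeR, false discovery rate 0.05, library as a term). In that contrast 40.8% of all 14004 genes tested were called, and the median log2 fold change was 0.53 over the members and -0.06 over all genes. Ifngr2 was higher by 3.76 ± 0.37 (log2, SE; adjusted p = 3.68e-07), Cgas by 1.68 ± 0.26, Ifnar2 by 1.39 ± 0.09, Sting1 by 1.08 ± 0.16 and Ifnar1 by 0.53 ± 0.13, each in 3 of the 3 libraries that had all 6 immune gates. Irf3 fell by 0.49 ± 0.13 in 3 of 3. Ifngr1 (-0.14 ± 0.20), Mavs (0.13 ± 0.31) and Tbk1 (0.16 ± 0.13) did not pass. Ifngr2 and Ifnar2 passed under all 16 alternatives tried. Over these the Ifngr2 difference ran from 3.15 to 9.49 and that of Ifnar2 from 1.12 to 1.95. With free RNA subtracted by microglial genes, mean Ifngr2 was 0 CPM in CD8 T and NK cells, so the size of its difference there is not measured. Without mavrilimumab 1, Ifnar1 did not pass (0.36, adjusted p = 0.0518) and Ifngr1 did (-0.37, adjusted p = 0.0486). Ifnar1 also did not pass with cells thinned (0.29), with free RNA subtracted (0.50, adjusted p = 0.160) or with at least 50 cells per sum (0.26). Irf3 did not pass with cells thinned (-0.56) or with all cells of a rule (-0.32), Cgas with cells thinned (1.41, adjusted p = 0.0518), or Sting1 with free RNA subtracted by microglial genes (1.30, adjusted p = 0.0560). Under that subtraction Ifnar1 (0.97, adjusted p = 0.110) and Irf3 (-0.42, adjusted p = 0.379) did not pass either.

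**Figure D2:**
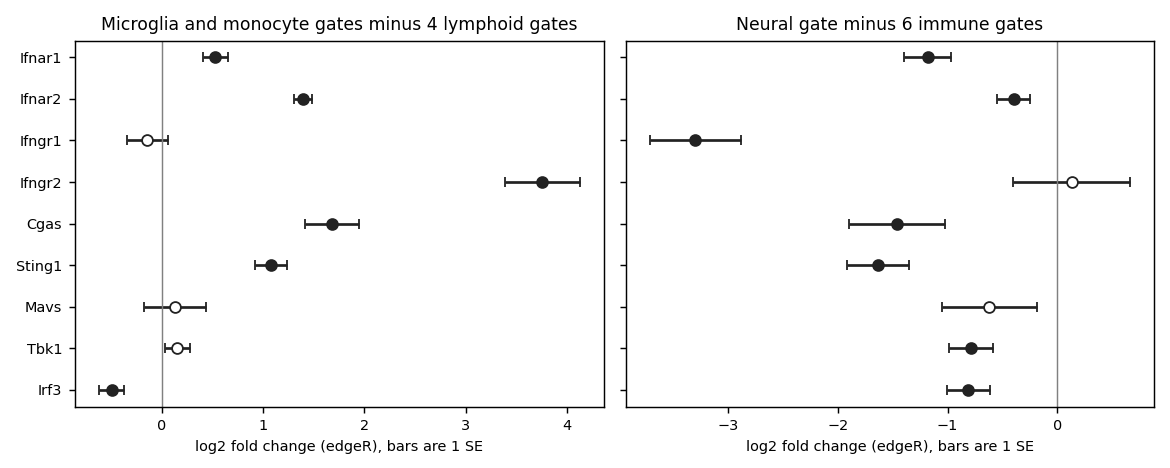
Log2 fold changes of 9 members (x axis, bars are 1 SE) in the microglia and Ccr2/Lyz2 gates against 4 lymphoid gates (left) and in the neural gate against 6 immune gates (right); filled points passed an adjusted p of 0.05. Ifngr2 at 3.76 lies farthest to the right on the left panel, and Ifngr1 at -3.30 farthest to the left on the right panel.

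Type I receptor chains were less unequal. Ifnar2, the chain with the long cytoplasmic tail that docks STAT2, stood at 230 to 348 CPM in microglia and at 233 to 389 in the Ccr2/Lyz2 gate. In CD8 T cells Ifnar2 was at 139 and 140 CPM under vehicle IgG and at 180 and 134 under mavrilimumab. In CD4 T cells it was at 92.1 and 87.7 against 143 and 90.5 CPM. CD4 T cells had less Ifnar2 than CD8 T cells in 4 of 4 libraries, by 0.66 ± 0.14 log2 (adjusted p = 0.0241), in a contrast that called 1.44% of all genes. That call was lost when any single library was left out (adjusted p 0.0731 to 0.308) with the difference at -0.69 to -0.61. Ifnar1 ranged from 39.3 to 99.1 CPM over CD8 T, CD4 T, NK and microglia, with the lowest value of each in vehicle IgG 2, and the order of those gates was within their spread. Ifnar1 in free RNA stood at 99.5, 42.0, 103 and 69.7 CPM in the order of the libraries above, also lowest in vehicle IgG 2, and these gates had 74.3 to 116% of it. Il10rb, the neighbour between them and no member, was higher in the myeloid gates by 0.70 ± 0.18 and lower in the neural gate by 2.98 ± 0.35 (log2).

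**Figure D3:**
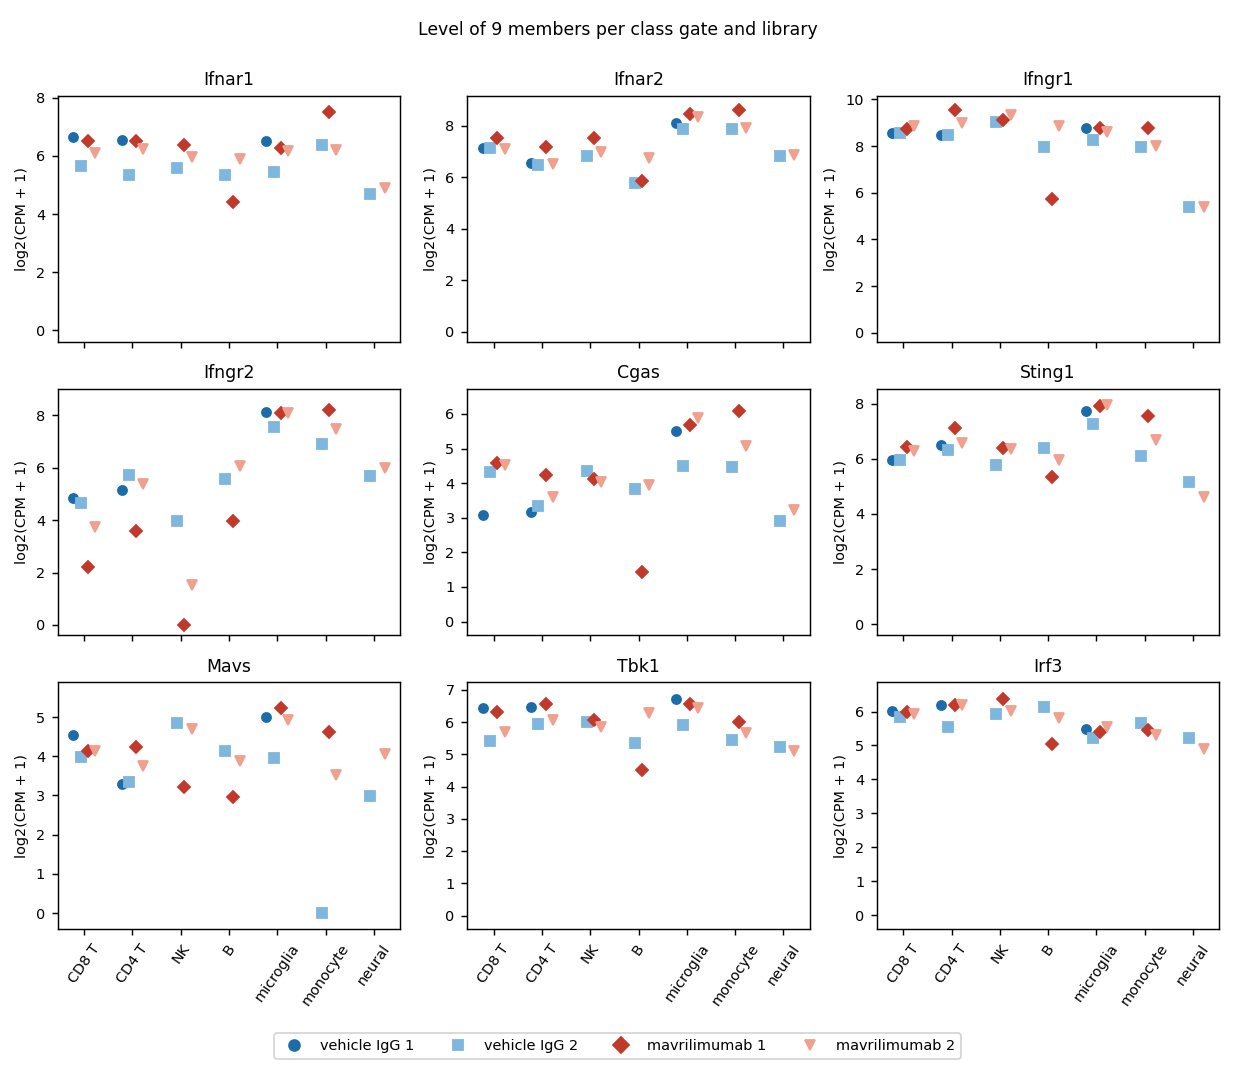
Level of 9 members as log2(CPM + 1) (y axis) in 7 class gates (x axis), 1 point per library, colours and symbols for the 4 libraries. Ifngr2 drops from 189 to 277 CPM in microglia to 27.4 CPM or less in CD8 T, while Ifngr1 stays between 303 and 465 CPM in both.

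The DNA sensor and its adaptor were highest in microglia by class mean, and for Cgas the Ccr2/Lyz2 gate was within the spread. Cgas was at 44.3, 21.5, 50.5 and 57.5 CPM in microglia of vehicle IgG 1, vehicle IgG 2, mavrilimumab 1 and mavrilimumab 2. In CD8 T cells Cgas was at 7.38, 18.9, 23.2 and 22.2 CPM in the same order, and in the neural gate at 6.52 and 8.27. These are low counts. Cgas in free RNA stood at 30.0, 7.09, 20.7 and 24.7 CPM in that order, below microglia in each library and above CD8 T cells in vehicle IgG 1 and mavrilimumab 2. Sting1 was at 212, 150, 242 and 247 CPM in microglia, above the 67.1 to 185 CPM of the Ccr2/Lyz2 gate within each library that had both. Microglia exceeded that gate in Sting1 by 0.93 ± 0.27 log2 (adjusted p = 0.0178) and had less Ifnar1, which fell by 0.73 ± 0.21 (adjusted p = 0.0172), in 3 of 3 libraries each. These are the 2 of 9 members called there, where 24.9% of all genes were called. Without cells over 1% S100a8 and S100a9 UMIs, an alternative chosen after the data were seen, both were again called. With free RNA subtracted neither was (Ifnar1 -0.84, adjusted p = 0.228; Sting1 0.95, adjusted p = 0.334). Judged by neural genes, free RNA came to 84.6% of the Ccr2/Lyz2 sum of mavrilimumab 1, which had the highest Ifnar1 and Sting1 of that gate. The most allowed, 50%, was subtracted. In that sum 1 of the 4 neural genes was seen, at 3.93 CPM, so the 84.6% is uncertain. By neural genes free RNA came to 0% of the CD8 T and CD4 T sums of vehicle IgG 1, and by microglial genes to 47.2 and 37.1%. With at least 50 cells per sum, which leaves mavrilimumab 2 alone in the Ccr2/Lyz2 gate, Ifnar1 was at -0.23 and Sting1 at 0.93, and neither was called. With the subtraction by microglial genes they were at -0.61 (adjusted p = 0.852) and 1.11 (adjusted p = 0.710). That subtraction changes only the lymphoid sums of the joint fit, so its values say nothing of free RNA in the gates compared here. Tbk1 (0.59, adjusted p = 0.0535) was called with RLE size factors and by DESeq2, and Mavs by DESeq2. Ifnar1 was not called without vehicle IgG 2 (-0.70, adjusted p = 0.0827) or without mavrilimumab 1 (-0.43, adjusted p = 0.263), and without mavrilimumab 2 Sting1 was not called (0.78, adjusted p = 0.125). Ifnar1 also lost its call with no filter (-0.67, adjusted p = 0.0761), by limma-voom (-0.51, adjusted p = 0.0768) and with cells thinned (-1.01, adjusted p = 0.108). Sting1 lost it with all cells of a rule (0.64, adjusted p = 0.219). Sting1 in CD4 T cells, at 78.6 to 138 CPM, exceeded CD8 T cells, at 61.1 to 85.9 CPM, in 4 of 4 libraries, though the contrast did not pass (0.35 ± 0.23).

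Mavs, Tbk1 and Irf3, which act after the sensors, varied less. Mavs was the sparsest of the 3, at 14.6 to 36.3 CPM in microglia and 14.7 to 22.1 CPM in CD8 T cells, with no UMI in the 46 Ccr2/Lyz2 cells of vehicle IgG 2, where a 0 allows 10.6 CPM. Tbk1 ranged from 42.1 to 104 CPM over CD8 T, CD4 T, NK and microglia. Irf3 was lower in microglia than in CD8 T cells, unlike Sting1: it was at 36.1 to 45.2 CPM in microglia and at 55.9 to 64.3 CPM in CD8 T cells, and these ranges did not overlap. Against free RNA of the same library, Irf3 stood at 69.5 to 132% in microglia and 105 to 205% in CD8 T cells. For Mavs it was 149 to 177% in microglia and 80.4 to 178% in CD8 T cells. The part of free RNA in these levels was not tested. Of all 54 pairs of neighbouring classes in the orders of the 9 members, 14 differed by more than the larger SD of the pair.

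Trex1 was nearly unseen. Over all 23 sums it had 36 UMIs, of which 20 fell in the 15569 neural cells of vehicle IgG 2, and no sum exceeded 1.30 CPM, so it was not tested. In RefSeq, Trex1 (chr9:109057932-109059723) lies 23 bases from Atrip (chr9:109059747-109074124), and a transcript that runs through both, Atrip-trex1, is annotated from 109057933 to 109074097 and overlaps both. Atrip, which the files also list, had UMIs in 23 of 23 sums, at 8.24 to 31.4 CPM. Reads shared by overlapping genes may not be counted for either, and the part of this overlap in the Trex1 counts was not tested. The level of Trex1 is therefore uncertain, and no absence is read from it.

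The neural gate had less of most members. Against the 6 immune gates, 7 of 9 members were lower and 0 higher, in a contrast that called 50.8% of all genes, with a median log2 fold change of -0.81 over the members and 0.20 over all genes. Ifngr1 fell by 3.30 ± 0.42 (adjusted p = 9.01e-06), Sting1 by 1.63 ± 0.28, Cgas by 1.46 ± 0.44, Ifnar1 by 1.18 ± 0.21, Irf3 by 0.81 ± 0.19, Tbk1 by 0.79 ± 0.20 and Ifnar2 by 0.40 ± 0.15, each in 2 of 2 libraries. Ifngr2 (0.13 ± 0.53) and Mavs (-0.62 ± 0.43) did not pass. Ifnar2 in the neural gate, at 111 and 116 CPM, was above CD4 T cells of the same libraries (87.7 and 90.5 CPM) and below their microglia (230 and 323 CPM). Free RNA of these libraries held Ifnar2 at 93.8 and 142 CPM. Without mavrilimumab 2, which leaves vehicle IgG 2 alone, 3 members were called (Ifnar1, Ifngr1 and Sting1), and without vehicle IgG 1 Ifnar2 was not (-0.40, adjusted p = 0.0619). Without mavrilimumab 2, Ifnar2 was at -0.25, Tbk1 at -0.52 and Irf3 at -0.58, and without vehicle IgG 2 they were at -0.74, -1.27 and -1.29. Ifnar2 was also not called with no filter (-0.36, adjusted p = 0.182) or all cells of a rule (-0.51, adjusted p = 0.127). Nor was it with cells thinned (-0.43, adjusted p = 0.130) or at least 50 cells per sum (-0.38, adjusted p = 0.0723). By limma-voom Mavs was called as lower (-0.77, adjusted p = 0.0214). With free RNA subtracted as an alternative, at most 50% of a sum, the mean neural level fell from 41.3 to 3.79 CPM for Ifngr1 and from 26.8 to 3.88 CPM for Ifnar1. The Ifngr2 share of the pair then rose from 57.6 to 92.1%, and Mavs was called as lower (-1.44, adjusted p = 0.0182). With free RNA subtracted from the lymphoid sums by microglial genes, Ifngr1 kept its call and the other 6 did not pass (adjusted p 0.134 to 0.858), though Sting1 (-1.98), Cgas (-1.47), Ifnar1 (-1.22), Irf3 (-1.08) and Tbk1 (-0.97) lay no nearer to 0 than before, and Ifnar2 was at -0.33.

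Among the lymphoid gates few members passed the test, in a small design. In the Cd79 gate against CD8 and CD4 T cells, 0 of 9 members were called by edgeR, 4 had an unadjusted p under 0.05, DESeq2 called 0 and limma-voom 2, with 11.4% of all genes called by edgeR. Over the alternatives the number of all genes called there ran from 565 to 2599, so the 2 limma-voom calls are not read as particular to the members. Of the 14004 genes tested, 3255 had an unadjusted p under 0.05 by edgeR. The log2 difference was 1.32 ± 0.53 for Ifngr2 and -0.77 ± 0.31 for Ifngr1 (edgeR adjusted p = 0.131 and 0.132), and without vehicle IgG 2 Ifngr2 was called (1.68, adjusted p = 0.0333). The Cd79 gate of mavrilimumab 1, rich in immunoglobulin UMIs, had the lowest Ifngr1 of any immune sum, at 51.5 CPM against 249 and 468 in the other libraries. In NK against CD8 T cells 0 of 9 were called, 0 had an unadjusted p under 0.05, DESeq2 and limma-voom called 0 each, and 3.78% of all genes were called. Of all 14004 genes, 1954 had an unadjusted p under 0.05 by edgeR there.

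Between treatments no member passed the test in any gate. By edgeR 0 of 9 members were called in CD8 T, CD4 T, NK, Cd79 and microglia gates and 0 of 8 in the Ccr2/Lyz2 gate. Of all genes, 0% were called in CD8 T, CD4 T, Cd79 and microglia gates, 10.5% in NK and 0.452% in the Ccr2/Lyz2 gate. An unadjusted p under 0.05 was found for 1 member in CD4 T (Ifngr1) and 1 in NK (Ifngr2) and 0 in the rest, DESeq2 called 0 members, and limma-voom called 2, both in NK (Ifngr2 at -2.83 and Sting1 at 0.64). At unadjusted p under 0.05 edgeR listed 549 of 12218 genes in CD8 T, 279 of 10505 in CD4 T and 354 of 12359 in microglia gates. DESeq2 called 23, 0 and 10 there and limma-voom 0 in each. In NK, with 1 vehicle IgG library, the number of all genes called varied widely over the alternatives, as given below. The 2 limma-voom calls in NK are therefore not read as particular to the members.

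With 1 vehicle IgG library in NK cells, Ifngr2 (-2.97 log2) and Sting1 (0.62) came nearer to the threshold by edgeR's adjusted p there than any difference below. The adjustment depends on all genes of a gate, so this does not rank the differences between gates. For gates with 2 libraries per group, these differences are described. Ifngr1 in CD4 T cells was at 356 and 351 CPM under vehicle IgG and at 747 and 503 CPM under mavrilimumab, a log2 difference of 0.87 ± 0.30 (adjusted p = 1.00). Treg markers (Foxp3, Il2ra and Ikzf2) in that gate summed to 389, 311, 1096 and 354 CPM in the 4 libraries in order, and Ifngr1 in the free RNA stood at 285, 74.6, 706 and 305 CPM. Both were highest in mavrilimumab 1, as Ifngr1 was, and their part in its values was not tested. Sting1 in CD8 T cells was at 61.1 and 61.8 against 85.9 and 76.9 CPM, a difference of 0.45 ± 0.18 (adjusted p = 0.914). Sting1 in free RNA stood at 62.3 and 25.7 against 86.3 and 65.3 CPM, and the CD8 T difference was 0.28 with free RNA subtracted and 0.05 with cells thinned. Its CPM did not overlap between groups in CD8 T, CD4 T or microglia gates, each time with mavrilimumab higher, and the same held for Cgas. In each gate taken alone, 14.4%, 12.3% and 12.6% of all genes were higher in this way. The share of all genes that were so in all of these gates was not counted. Ifngr2 in CD8 T cells had a log2 difference of -1.57 ± 0.67 (adjusted p = 0.914), which was -0.87 without mavrilimumab 1 and -2.80 without mavrilimumab 2, and free RNA held less of it in mavrilimumab 1 and more in vehicle IgG 1 than in the other libraries.

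How often groups fail to overlap by themselves sets the scale. In CD8 T cells 3 of 9 members were higher in both mavrilimumab libraries than in both vehicle IgG libraries and 1 was lower, where 14.4% and 17.2% of all genes were. In CD4 T cells 5 were higher and 0 lower, against 12.3% and 16.6%, and in microglia 3 and 0, against 12.6% and 18.1%. The median log2 difference of the 9 members was 0.17 in CD8 T, 0.42 in CD4 T and 0.28 in microglia, against -0.02, 0.01 and -0.03 over all genes. In NK cells 5 were higher and 3 lower, against 25.1% and 42% of all genes. In the Cd79 gate 1 was higher and 3 lower, against 11.5% and 39.4%. In the Ccr2/Lyz2 gate it was 6 and 1 of the 8 tested, against 31.8% and 43.2%. Each of these gates has 1 vehicle IgG library. The 3 lower in NK cells were Ifngr2, Cgas and Mavs, with 0, 2 and 1 UMIs in mavrilimumab 1. Counts this low do not place that library below vehicle IgG 2. For 5 members the groups did not overlap in 2 gates and lay in opposite directions, as they did for 26.9% of genes tested in at least 2 gates and 32.7% of those tested in at least 5, as the 9 members were. These counts are over few genes and few libraries, and call nothing particular to the members.

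**Figure D4:**
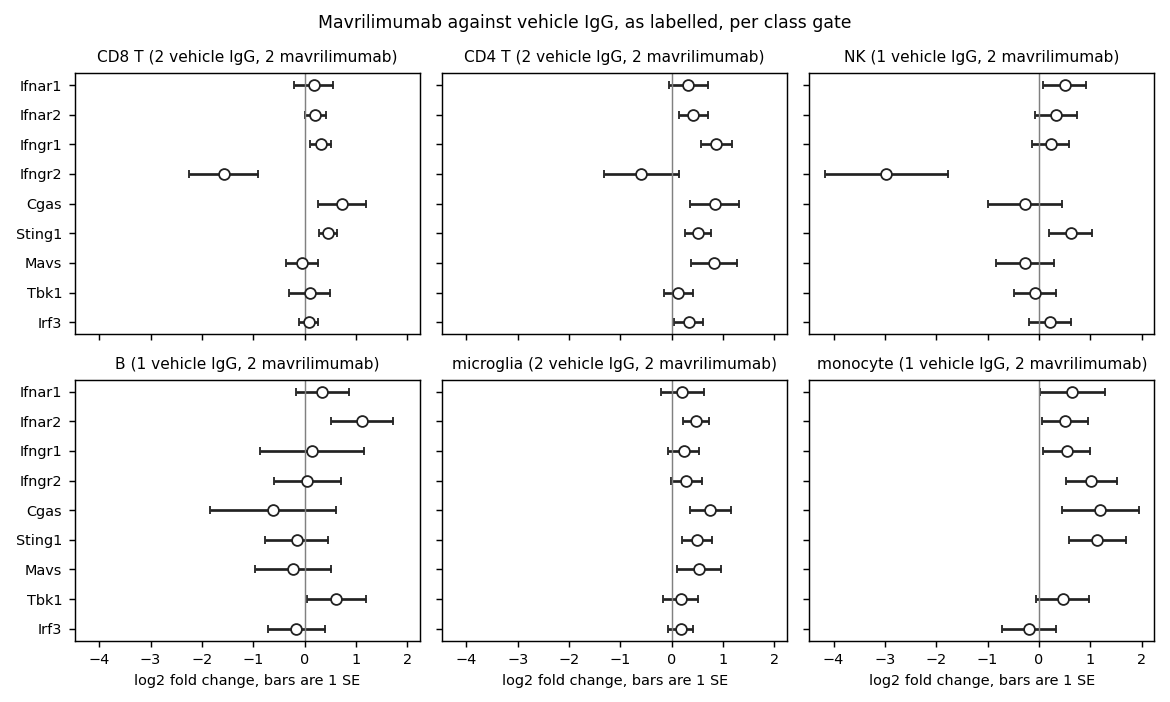
Log2 fold changes of the members between mavrilimumab and vehicle IgG as labelled (x axis, bars are 1 SE) in 6 gates, with the number of libraries per group in each title. All points are open, as none passed an adjusted p of 0.05 by edgeR; limma-voom called Ifngr2 and Sting1 in NK; Ifngr2 in NK at -2.97 lies farthest from 0.

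Leaving out vehicle IgG 1 changed the microglia result. In microglia 0 members were called with all 4 libraries; without vehicle IgG 1, leaving 1 vehicle IgG library that is assumed to vary like the mavrilimumab ones, 4 were called as higher: Cgas (1.45), Mavs (1.24), Ifnar1 (0.91) and Sting1 (0.81), and 1473 of all genes. Microglia of vehicle IgG 2 had the lowest value of each of the 9 members among the 4 libraries. Neural markers (Sox2, Sox11, Fabp7 and Ptn) reached 358 CPM in those microglia and at most 7.79 CPM in the other 3 libraries, and their part was not tested. Other immune gates of vehicle IgG 2 held them as well, at 259 to 532 CPM. The difference between treatments was also compared between microglia and CD8 T cells directly. No member of 9 was called by edgeR, DESeq2 or limma-voom, 1 had an unadjusted p under 0.05, and 0% of the 15179 genes were called. That member was Ifngr2, whose log2 difference was 2.13 ± 0.64 larger in microglia (adjusted p = 1.00); without vehicle IgG 1 it was called at 2.28 (adjusted p = 0.000534). It was 1.36 without mavrilimumab 1, 3.17 without mavrilimumab 2 and 0.54 with free RNA subtracted by microglial genes, and was not called in any of these. That subtraction left Ifngr2 at a mean of 0 CPM in CD8 T cells and did not change microglia. The 0.54 therefore does not compare measured levels of both gates.

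Other genes of the pathway, 34 from a list of ligands, kinases, sensors and brakes, were described beside the members. In the myeloid against lymphoid contrast, 10 of the 31 tested were higher and 8 lower. Ifi204, a DNA-binding sensor, was higher by 4.32 ± 0.36 (log2), Irf5 by 3.44 ± 0.15, Socs3 by 2.17 ± 0.32 and Dnase2a, a lysosomal DNase, by 1.59 ± 0.16. Ifng, the ligand of IFNGR1, fell by 5.49 ± 0.54, Socs1 by 2.72 ± 0.30, Ikbke by 1.50 ± 0.33 and Jak1 by 1.20 ± 0.15. Of the listed genes, 21 were lower in the neural gate and 1 higher (Ikbke, 1.06 ± 0.37); Ifng, Aim2, Ifi204 and Samhd1 fell the most, by 5.17, 4.98, 4.82 and 4.05. Microglia against the Ccr2/Lyz2 gate had 5 higher, led by Enpp1 (3.12 ± 0.90), an enzyme that cleaves the cyclic dinucleotide made by cGAS, and 5 lower, led by Samhd1 (-2.30 ± 0.23) and Jak2 (-1.57 ± 0.28). Enpp1 was at 2.79 to 3.93 CPM in the Ccr2/Lyz2 gate, a low count, so the size of its difference is uncertain. The Cd79 gate against T cells had 3 higher, led by Irf5 (2.43 ± 0.23), and 12 lower, led by Ifng (-2.91 ± 0.54). In NK against CD8 T cells Irf5 was higher (2.23 ± 0.27) and Samhd1 (-1.51) and Zbp1 (-1.50) were lower, and CD4 against CD8 T cells had 0 of 31 called.

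Between treatments, 4 of the 31 genes tested were called in NK cells, all as higher under mavrilimumab, and 0 in any other gate. Of all genes tested in NK cells 10.5% were called, 62 higher and 1140 lower. Among the 4 were Usp18 (1.78 ± 0.44), Zbp1 (1.37 ± 0.43) and Irf7 (1.37 ± 0.42, log2). As vehicle IgG has 1 library there, the spread comes from the 2 mavrilimumab libraries alone, 1 of them with 20 NK cells, and the NK count over all genes ran from 0 to 2621 over the alternatives. The summed level of 10 interferon-stimulated genes, a readout of interferon received, was 1088 and 1065 CPM in CD8 T cells under vehicle IgG and 3599 and 1744 CPM under mavrilimumab. In CD4 T cells it was 1010 and 278 against 3616 and 1412 CPM, and in microglia 1598 and 813 against 2242 and 1610 CPM. The groups did not overlap in these 3 gates, in microglia by 1610 against 1598 CPM. Mavrilimumab 1 was the highest in each, and the sums were not tested.

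Patterns most like that of each member were read over the 23 sums, as correlations of log2(CPM + 1) that share libraries and gates and so carry no p-value. Nearest to Ifngr2 were Plekho1 (r = 0.947), Cd2ap (0.927) and Dusp16 (0.897). Nearest to Ifngr1 were Tmem50a (0.957), Ppp1r18 (0.936) and Elf4 (0.936), and nearest to Ifnar2 were Snx10 (0.938), Phka2 (0.921) and Ccdc86 (0.892). Ifnar1 lay nearest to Actr2 (0.914), Wipf1 and Ilrun; Cgas to Ywhah (0.911), Elovl1 and Tor1aip1; and Sting1 to Skil (0.907), Ubash3b and Slc25a45. Tbk1 lay nearest to Acsl4 (0.924), Kdm3b and Aftph, Irf3 to Rsbn1l (0.913), Mthfd1l and Arhgap10, and Mavs to Vps52 (0.826), A930015D03Rik and Fance. Trex1, with its few counts, is left out.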

How the data were processed

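The deposited files hold UMI counts per gene and droplet barcode, unfiltered, the authors' Cell Ranger output. The headers give version 9.0.1, and the submitters' processing notes name Cell Ranger 7 and 7.1.0, Scanpy 1.8.2 and build mm10. Cells had at least 1000 UMIs, 200 to 6000 genes and at most 10% mitochondrial UMIs. Doublets were not called; cells meeting more than 1 gate rule (33 to 355 per library) were left out. Counts were summed per library and gate, from 121394 to 73014826 UMIs, and at least 20 cells were required. Here the library was the replicate. Differences between sums were tested in edgeR 4.0.16 by quasi-likelihood (R 4.3.3; TMM, filterByExpr), with Benjamini-Hochberg adjustment over all genes tested at 0.05, and the scripts were tested on simulated data. Class contrasts had the library as a term. SEs come from the F statistic. Free RNA was the profile of barcodes with 10 to 300 UMIs, a range set after the totals per barcode were seen, and at most 50% of a sum was subtracted. Shares have exact Clopper-Pearson 95% intervals, and intervals and floors (3 counts of a sum) cover counting error only. Promoters are from RefSeq (GRCm38.p6). Those of 9 of the 10 members were searched, and Sting1 was not among them.

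All 10 members are named wherever tested. Of the listed pathway genes, up to 4 per direction with the largest change and a mean of at least 5 CPM are named, and per member the 3 genes of highest correlation among those with a mean of at least 20 CPM. Il10rb and Atrip were added after the values were seen. Members and lists were chosen with earlier results of these data known. Alternatives were RLE size factors, no filter, DESeq2 1.42.0, limma-voom (limma 3.58.1), each library left out, all cells of a rule, at least 2000 UMIs, thinned cells, free RNA subtracted, at least 50 cells and a replicate block; 3 more were added after seeing the data. T cell receptor files were used for their barcodes and sample names only. The values of a listed pathway gene and some checks of gates by marker lists are not reported here.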

Additional observations from a re-analysis of the deposited data

Results flagged for a closer look

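For 5 genes the labelled treatments did not overlap in 2 gates and lay in opposite directions, by the listed CPM of the libraries, as did 32.7% of the 9288 genes tested in at least 5 gates. None of these differences was tested, none of the single changes passed edgeR's test in its gate (limma-voom called Ifngr2 in NK cells), and the NK, Cd79 and Ccr2/Lyz2 gates have 1 vehicle IgG library each. For Ifngr2 the log2 change was 1.02 in the Ccr2/Lyz2 gate and -2.97 in NK cells, a difference of 3.99. In NK cells of mavrilimumab 1 Ifngr2 had 0 UMIs, which allows up to 24.7 CPM against 14.5 CPM in vehicle IgG 2, so that library is not shown to lie below. Cgas had 2 UMIs and Mavs 1 UMI there, against 19.3 and 27.6 CPM in vehicle IgG 2, and the same holds for them. For Cgas the log2 change was 1.20 in the Ccr2/Lyz2 gate and -0.28 in NK cells, a difference of 1.47. For Sting1 it was 1.14 in the Ccr2/Lyz2 gate and -0.16 in the Cd79 gate, a difference of 1.29. For Mavs it was 0.82 in CD4 T cells and -0.27 in NK cells, a difference of 1.09. For Irf3 it was 0.33 in CD4 T cells and -0.20 in the Ccr2/Lyz2 gate, a difference of 0.52. The Ccr2/Lyz2 gate of mavrilimumab 1 had 122 CPM of neutrophil genes and that of mavrilimumab 2 had 55518 CPM, and the part of that makeup was not tested. In the Cd79 gate Sting1 was at 83.0 CPM in vehicle IgG 2, 39.7 in mavrilimumab 1 and 61.0 in mavrilimumab 2. In mavrilimumab 1, 170 of the 212 Cd79 gate cells had over 10% immunoglobulin UMIs, and the part of this was not tested either.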

How the results depend on the processing

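Of the results recomputed under the alternatives, none turned its direction; most single genes that did not pass were not among them. Members called between treatments were 0 over the 6 gates, 2 by limma-voom and 0 to 4 with a library left out. In myeloid against lymphoid gates 6 were called, 3 with thinned cells, 3 with free RNA subtracted by microglial genes (the deeper subtraction, chosen after the data were seen) and 6 to 6 with a library left out. In neural against immune gates 7 were called, 1 with the deeper subtraction and 3 to 7 with a library left out. For microglia against the Ccr2/Lyz2 gate the 2 calls became 3 with RLE size factors, 1 with no filter, 4 by DESeq2, 1 by limma-voom, 1 with all cells of a rule, 1 with thinned cells, 0 with free RNA subtracted, 0 with at least 50 cells, 0 with the deeper subtraction and 1 to 2 with a library left out. The deeper subtraction changes only lymphoid sums, so its 0 for microglia against the Ccr2/Lyz2 gate is no result about free RNA in those gates. For the Cd79 gate against T cells the 0 calls became 2 by limma-voom, 1 with all cells, 1 with thinned cells, 1 with the deeper subtraction, 1 without immunoglobulin-rich cells and 0 to 1 with a library left out. For CD4 against CD8 T cells the 1 call became 0 with no filter, all cells, thinned cells, free RNA subtracted, at least 50 cells or the deeper subtraction, and 0 to 0 with a library left out. All class contrasts together gave 16 calls, 5 with the deeper subtraction and 10 to 15 with a library left out. The treatment difference between microglia and CD8 T cells gave 0, and 0 to 1 with a library left out. In neural against immune gates Ifnar2 lost its call with no filter, all cells, thinned cells or at least 50 cells. There limma-voom and the subtraction of free RNA added Mavs. The causes were not tested. Of 329 values of single genes, 279 kept their side of the threshold, 48 lost it and 2 gained it.

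Counts over all genes ranged widely: 0 to 372 in CD8 T, 0 to 546 in CD4 T, 0 to 2621 in NK, 0 to 454 in Cd79, 0 to 1473 in microglia and 0 to 389 in Ccr2/Lyz2 gates between treatments, 0 to 1018 for the difference between microglia and CD8 T, 2684 to 6242 for myeloid against lymphoid, 2549 to 8293 for neural, 101 to 3840 for microglia against the Ccr2/Lyz2 gate, 565 to 2599 for the Cd79 gate, 48 to 1010 for NK and 31 to 960 for CD4 T cells. With the replicate number as a block, 0 members were called between treatments, and of all genes 0 in CD8 T, 0 in CD4 T and 235 in microglia. Deviations of same-numbered libraries correlated at 0.498, 0.323 and 0.514 in these gates, but with 2 pairs and no pairing in the labels the block is not read as a pairing.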
